A study of Danio rerio with 16 samples.

Results

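Leptin and proglucagon are peptide hormone genes, and 6 genes of these hormone systems were looked for in the hearts of zebrafish: the leptin ligands lepb and lepa, the leptin receptor lepr, the proglucagon genes gcga and gcgb, and the glucagon receptor gcgra. They were named as injury-induced hormones from earlier results of these data, in which lepb and gcga were high after injury. The levels after injury are therefore given as a description, with no test. Of the 6 genes, 3 had a row among the 14500 genes of the table, namely lepb (ENSDARG00000045548), lepr (ENSDARG00000070961) and gcga (ENSDARG00000079296). The identifiers of lepa (ENSDARG00000091085) and gcgra (ENSDARG00000104022) had no row, and the name table used here gave no identifier under the symbol gcgb, so these 3 genes were not analysed here. Every listed gene held at least 1.76 units in its 4th highest library, so a gene that stayed low in all hearts could not appear, and lepb was listed through its injured libraries.

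The study asked how adult zebrafish hearts respond to injury with and without telomerase. Hearts came from wild-type fish (WT) and from fish with the genotype Tert (AB/hu3430) KO mutant, called KO here after the labels, and all fish were 6 to 9 months old. In each genotype a group labelled control was compared with a group taken 3 days after cryoinjury, in which a cold probe kills part of the ventricle. In wild-type zebrafish the tissue regrows over the following weeks. Each of the 4 groups held 4 libraries of polyadenylated RNA, each from a pool of 3 hearts, which averages differences between single fish. The KO fish lack working telomerase in all tissues, not in the heart alone.

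Leptin is a cytokine-like hormone, best known from mammalian adipose tissue, where it reports energy stores. It binds a receptor of the gp130 type, which acts through the kinase JAK2 and the transcription factor STAT3, and SOCS3 is a target of STAT3 that shuts the receptor down again. Fish have a pair of leptin genes, and in zebrafish lepb is known as a gene that is switched on in injured fins and hearts. Proglucagon is a precursor: in pancreatic alpha cells the convertase PCSK2 cuts glucagon from it, and in intestinal cells PCSK1 cuts out the incretin GLP-1. Both hormones act through Gs-coupled receptors that raise cyclic AMP, which in mammalian liver turns on genes of glucose production.

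Recovered reads over the listed genes ranged from 5611576 to 14831664 per library. The level of tert itself was 1.19 to 1.97 units in WT control, 1.99 to 5.16 in WT cryoinjury, 5.65 to 6.56 in KO control and 6.25 to 6.84 in KO cryoinjury hearts. The hu3430 allele is a point mutation and not a deletion, so this RNA level does not check the genotype labels. KO cryoinjury libraries 1 and 2 stood apart, with 337 and 887 units of krt5, an epithelial keratin, against 4.68 to 75.4 units in the other 14 libraries. Heart muscle markers were abundant in every library, with a summed level of the 3 listed cardiomyocyte genes of 14000 to 31900 units.

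The leptin ligand lepb was near 0 in control hearts and present in every injured heart pool. In WT control hearts its level was 0, 0.132, 0 and 0 units, which is 1 read in 4 libraries. In WT cryoinjury hearts it was 5.63, 5.66, 3.14 and 5.82 units, from 48, 60, 32 and 97 reads. The groups did not overlap, and library 3 was the low member of the injured WT group. In KO control hearts the level was 0, 0, 0.152 and 0 units, again from 1 read in 4 libraries. In KO cryoinjury hearts it was 1.83, 8.38, 5.84 and 5.9 units, from 12, 58, 35 and 53 reads. Libraries 1 and 2, which stood apart by krt5, held the lowest and the highest lepb level of the injured KO group. In a bulk sample such as these, more cells that make an RNA and more RNA per cell cannot be told apart.

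Group means of lepb were 0.0329 ± 0.0659 units in WT control, 5.06 ± 1.28 in WT cryoinjury, 0.0381 ± 0.0762 in KO control and 5.49 ± 2.71 in KO cryoinjury hearts (SD, n = 4 each). Reads were then compared on the deposited scaling of each library, not per total reads. The 237 reads of injured WT hearts against 1 read of control hearts gave a ratio of 145, with an exact 95% interval of 25.8 to 5750. In KO hearts 158 reads against 1 gave 143, with an interval of 25.3 to 5680. These intervals cover counting error, not the spread between pools, and their width comes from the single control read. A library with 0 reads allowed up to 3 reads, which is 0.3861 to 0.5305 units in the WT control and 0.4039 to 0.5882 units in the KO control libraries concerned.

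On the log2(value + 1) scale used for the tests, lepb was higher after injury by 2.53 in WT and by 2.52 in KO hearts, with a standard error of 0.28 from limma in each. Adding 1 unit before taking logarithms compresses the change of a gene this low, so this is well below the read ratio. Ordered by their rise, 98 genes rose more than lepb in WT and 154 in KO hearts. Without KO cryoinjury libraries 1 and 2 the difference in KO hearts was 2.73.

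**Figure D1:**
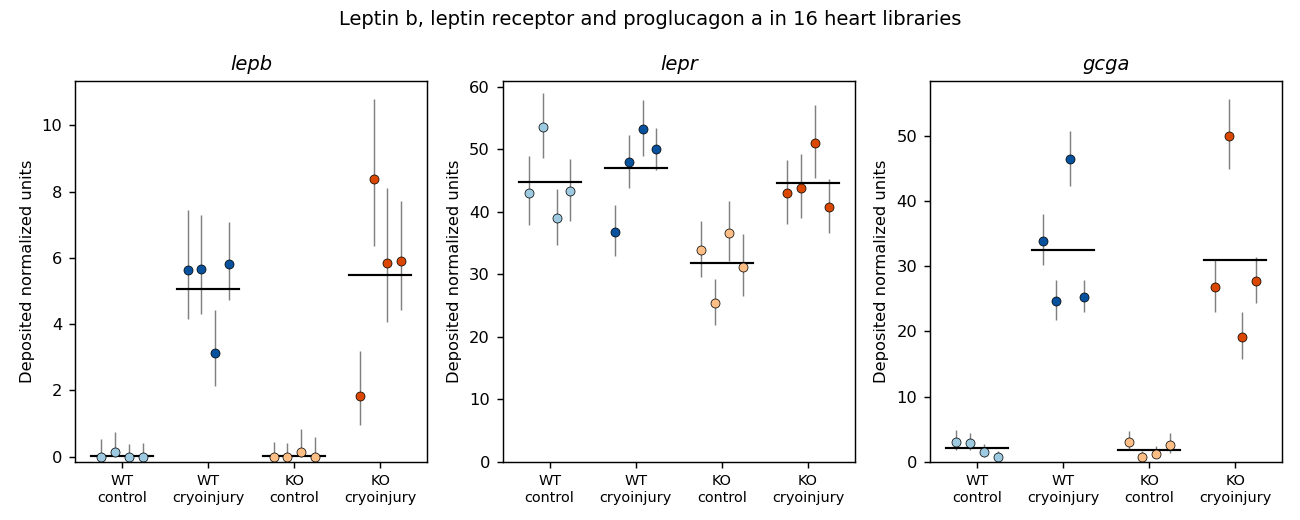
Levels of lepb, lepr and gcga in deposited normalized units (vertical axes, from 0 for lepr and gcga and from just below 0 for lepb) in the 16 libraries, grouped by genotype and injury. Points are libraries in replicate order, black lines are group means and grey bars are exact 95% Poisson intervals of the reads, or up to 3 reads where there were 0; lepb and gcga separate injured from control hearts in both genotypes, and lepr is lowest in KO control hearts.

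The ligand of the other hormone system, gcga, was low but measurable in control hearts and high in all injured ones. In WT control hearts it stood at 3.01, 2.9, 1.54 and 0.702 units, from 5 to 22 reads. Injured WT hearts held 33.9, 24.6, 46.4 and 25.2 units, from 261 to 472 reads. The lowest injured WT pool was far above the highest control pool. In KO control hearts the level was 3.0, 0.673, 1.22 and 2.55 units, from 5 to 20 reads. Injured KO hearts held 26.8, 50.0, 19.2 and 27.7 units, from 115 to 346 reads. Again the groups did not overlap, and the spread among injured pools was wide, with library 2 highest.

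Mean gcga was 2.04 ± 1.11 units in WT control and 32.5 ± 10.1 in WT cryoinjury hearts (SD, n = 4 each), a ratio of means of 16. The corresponding means in KO hearts were 1.86 ± 1.1 and 30.9 ± 13.3 units, a ratio of 16.6. Ratios of summed reads on the deposited scaling were 15.8 (exact 95% interval 12.1 to 21.0) and 17.4 (13.0 to 24). On the log2(value + 1) scale the difference was 3.5 in WT and 3.48 in KO hearts, each with a standard error of 0.33, and 20 and 37 genes rose more. Without KO cryoinjury libraries 1 and 2 it was 3.16 in KO hearts.

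The receptor lepr was present in all hearts and behaved unlike its ligand. Its level was 43.1, 53.6, 39.0 and 43.3 units in WT control hearts and 36.8, 48.0, 53.3 and 50.0 units in WT cryoinjury hearts. These ranges overlapped widely. In KO control hearts lepr was 33.9, 25.4, 36.7 and 31.2 units, each below the lowest WT control pool. In KO cryoinjury hearts it was 43.0, 43.9, 51.1 and 40.8 units, within the range of both WT groups.

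Means of lepr were 44.8 ± 6.24 and 47.0 ± 7.15 units in WT control and injured hearts and 31.8 ± 4.82 and 44.7 ± 4.46 units in KO control and injured hearts (SD, n = 4 each). The difference after injury was 0.07 in WT and 0.48 in KO hearts on the log2(value + 1) scale, with a standard error of 0.13. The name injury-induced came from the lepb and gcga levels after injury in these data, so those levels do not test it. The lepr levels of WT hearts with and without injury overlapped. With library totals in place of the deposited scaling, the lepr differences were 0.42 and 0.72. That scaling moved the median of all genes by 0.33 in WT and 0.22 in KO hearts, so most of the move in lepr was shared by all genes.

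In order of their means, lepb ran from WT control through KO control and WT cryoinjury to KO cryoinjury, with overlapping ranges between both controls and between both injured groups. For gcga the order was KO control, WT control, KO cryoinjury and WT cryoinjury, with overlap in the same places. For lepr, KO control hearts were lowest and did not overlap with KO cryoinjury hearts, the next group up, and the remaining 3 groups overlapped. Levels are not given per length of transcript, so they cannot be compared between genes.

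The genotype was not used to choose these genes, and its effect was tested with limma over all 14500 genes, with Benjamini-Hochberg adjustment and 0.05 as the threshold. In control hearts 1.48% of all genes passed, 0.407% higher and 1.08% lower in KO, and 0 of the 3 hormone genes did. KO minus WT in control hearts was 0.01 for lepb (95% interval -0.59 to 0.6, adjusted p = 0.997) and -0.09 for gcga (-0.79 to 0.61, adjusted p = 0.939). At control levels this low neither interval excludes a sizeable relative difference.

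The receptor lepr differed most, by -0.48 (standard error 0.13, 95% interval -0.76 to -0.21), lower in 4 of 4 KO control pools than in any WT control pool. Its unadjusted p in limma was 0.0018 and its adjusted p was 0.0754, which misses the threshold. Of all 14500 genes, 2299 had an unadjusted p under 0.05 in limma in this contrast. How many of them separate the pools as lepr does was not counted. The ratio of lepr means was 0.711. The DESeq2 Wald test on recovered reads gave -0.49 with an adjusted p of 0.0317, and edgeR's quasi-likelihood test gave an adjusted p of 0.0854. Leaving out each library in turn gave adjusted p-values from limma of 0.0542 to 0.225.

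In injured hearts 0.441% of all genes passed, 0.29% higher and 0.152% lower in KO, and again 0 of the 3 in limma, edgeR or DESeq2, with 0 at an unadjusted p under 0.05 in limma. KO minus WT was 0 for lepb (95% interval -0.59 to 0.59, limma adjusted p = 0.998). For gcga it was -0.11 (-0.81 to 0.59, adjusted p = 0.94 in limma), and for lepr it was -0.06 (-0.34 to 0.21, adjusted p = 0.898 in limma). In reads on the deposited scaling, injured KO over injured WT hearts was 1.08 for lepb (exact 95% interval 0.875 to 1.32), 0.992 for gcga (0.912 to 1.08) and 0.925 for lepr (0.862 to 0.992), with counting error only. A genotype difference in the injury response was tested as an interaction, where 0% of genes passed in limma, with 1191 genes at an unadjusted p under 0.05, 0 passing in edgeR and 20 in DESeq2. The interaction was 0 for lepb (95% interval -0.84 to 0.83) and -0.02 for gcga (-1.01 to 0.97). It was 0.42 for lepr (0.03 to 0.81, unadjusted p = 0.0368 and adjusted p = 0.593 in limma). On the log2(value + 1) scale, the intervals of lepb and gcga leave room for a difference of up to about 1 in either direction between the genotypes. For lepb this scale compresses the change, and with 1 control read in each genotype a larger difference in fold change is not excluded.

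Both hormones were high in the same 8 pools, and within these pools their levels were not ordered alike. Over the 8 injured libraries Pearson's r of log2(value + 1) was 0.0615 and Spearman's rho 0.0476 (exact permutation p = 0.967 and 0.935, the same after Benjamini-Hochberg adjustment over 3 relations). Without the 2 libraries farthest from the median of lepb, KO cryoinjury 1 and WT cryoinjury 3, r was 0.794 over 6. Without KO cryoinjury libraries 1 and 2 it was -0.817, so the sign depended on which libraries were left out. For lepb and lepr r was -0.108 and rho -0.0476 (exact permutation p = 0.832 and 0.935, adjusted 0.967 and 0.935). There r was -0.0346 without KO cryoinjury 1 and WT cryoinjury 3, and -0.456 without KO cryoinjury libraries 1 and 2. For gcga and lepr r was -0.128 and rho -0.262 (exact permutation p = 0.746 and 0.536, adjusted 0.967 and 0.935). Here r was -0.892 without KO cryoinjury 2 and WT cryoinjury 3, and -0.0903 without KO cryoinjury libraries 1 and 2. The size of r thus depended on which pair of libraries was left out.

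**Figure D2:**
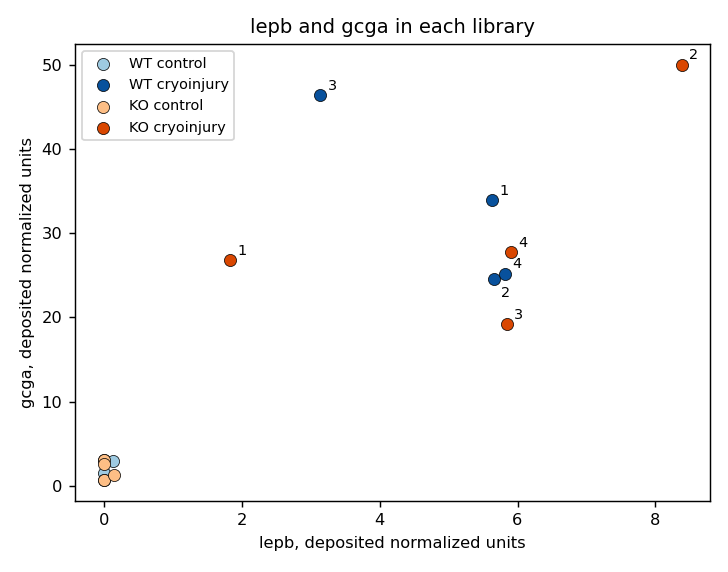
Level of gcga (vertical axis) against level of lepb (horizontal axis), both in deposited normalized units, with a point for each of the 16 libraries and the replicate number beside the injured ones. The 8 control libraries sit near the origin, at most at 0.152 units of lepb and 3.01 of gcga, and the injured ones spread over 1.83 to 8.38 units of lepb and 19.2 to 50.0 of gcga.

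Other genes of the leptin pathway were taken as a list of gp130-type ligands, receptors, JAK kinases, STAT factors and their inhibitors, of which 47 genes other than lepb and lepr had a row. In WT hearts 15 rose and 10 fell after injury, and in KO hearts 15 rose and 6 fell. Over all genes 45.9% passed in WT hearts, 24.2% higher and 21.7% lower, and 47.6% in KO hearts, 25.2% higher and 22.4% lower. The median change of the list was 0.19 and 0.1, against -0.01 and -0.016 over all genes. With library totals as the scaling, 27 rose and 6 fell in WT and 20 and 4 in KO hearts. Of the 47 genes, il11a, il11b and crlf1a were listed through their injured libraries, as lepb was. This favours a rise in advance, so they are described with no p, and the counts of genes that rose include them.

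Among the ligands, il11a was likewise near 0 in control hearts and present after injury. This interleukin signals through gp130, and its mean was 0.112 ± 0.0774 units in WT control and 4.04 ± 0.66 in injured WT hearts, from 3 and 185 reads in all. In KO hearts it was 0.0871 ± 0.102 and 5.06 ± 3.21 units, from 2 and 144 reads. The difference was 2.17 in WT and 2.36 in KO hearts on the log2(value + 1) scale. Its paralog il11b had 1 read in WT control and 85 in injured WT hearts, and 1 and 55 in KO hearts. The cytokine partner crlf1a was at 1.15 ± 0.623 and 9.39 ± 3.7 units in WT hearts, a difference of 2.24, and that of KO hearts was 2.46. Erythropoietin, epoa, fell from 150 ± 31.3 to 76.5 ± 9.79 units in WT hearts, a log2 change of -0.95 (limma adjusted p = 3.98e-05), and changed by -0.98 in KO hearts (3.16e-05). Neither il34 nor cntf passed the threshold.

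The receptors moved in different directions. Where the lepr levels of WT hearts overlapped, lifrb, a receptor for the LIF group of cytokines, rose from 4.71 ± 1.4 to 24.1 ± 3.93 units (log2 change 2.16, limma adjusted p = 1.68e-06), and by 2.63 in KO hearts (2.15e-07). The interleukin 11 receptor il11ra fell from 21.0 ± 1.74 to 11.9 ± 2.78 units in WT hearts (-0.79, limma adjusted p = 0.000223) and by 0.66 in KO hearts (0.00117). The G-CSF receptor CSF3R, also counted here as a neutrophil marker, rose by 1.89 (adjusted p = 8.31e-05 in limma) and 1.53 (0.000615). The growth hormone receptor ghrb was 257 ± 59 units in WT control, 138 ± 34.7 in WT cryoinjury, 127 ± 15.4 in KO control and 144 ± 20.6 in KO cryoinjury hearts. It fell in WT hearts (-0.9, adjusted p = 0.000457 in limma), the KO change was 0.18 (adjusted p = 0.434), and the interaction missed the threshold (adjusted p = 0.384).

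Downstream of the receptors, JAK2, the kinase leptin uses, had log2 changes of -0.13 and -0.12 in WT and KO hearts (limma adjusted p = 0.348 and 0.355). Its relative JAK1 rose by 0.56 (adjusted p = 1.51e-05 in limma) and 0.65 (3.13e-06). STAT3 rose from 33.5 ± 2.59 to 60.4 ± 7.03 units in WT hearts and from 28.9 ± 1.26 to 52.2 ± 5.18 in KO hearts, a log2 change of 0.83 in each (limma adjusted p = 1.82e-06 and 2.09e-06). The feedback inhibitor SOCS3 had a pair of identifiers, and ENSDARG00000026611 rose from 27.8 ± 4.32 to 87.0 ± 6.25 units in WT hearts, a log2 change of 1.62 (adjusted p = 7.15e-08 in limma), and by 1.72 in KO hearts (3.67e-08). The other, ENSDARG00000025428, was at 317 ± 134 and 416 ± 101 units in WT hearts, a difference of 0.45 (limma adjusted p = 0.211). SOCS1 rose by 1.45 and 1.59 (limma adjusted p = 2.82e-05 and 1.18e-05), and the phosphatase PTPN6, a brake on JAK signalling, rose by 1.58 and 1.68 (3.94e-05 and 2.31e-05).

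**Figure D3:**
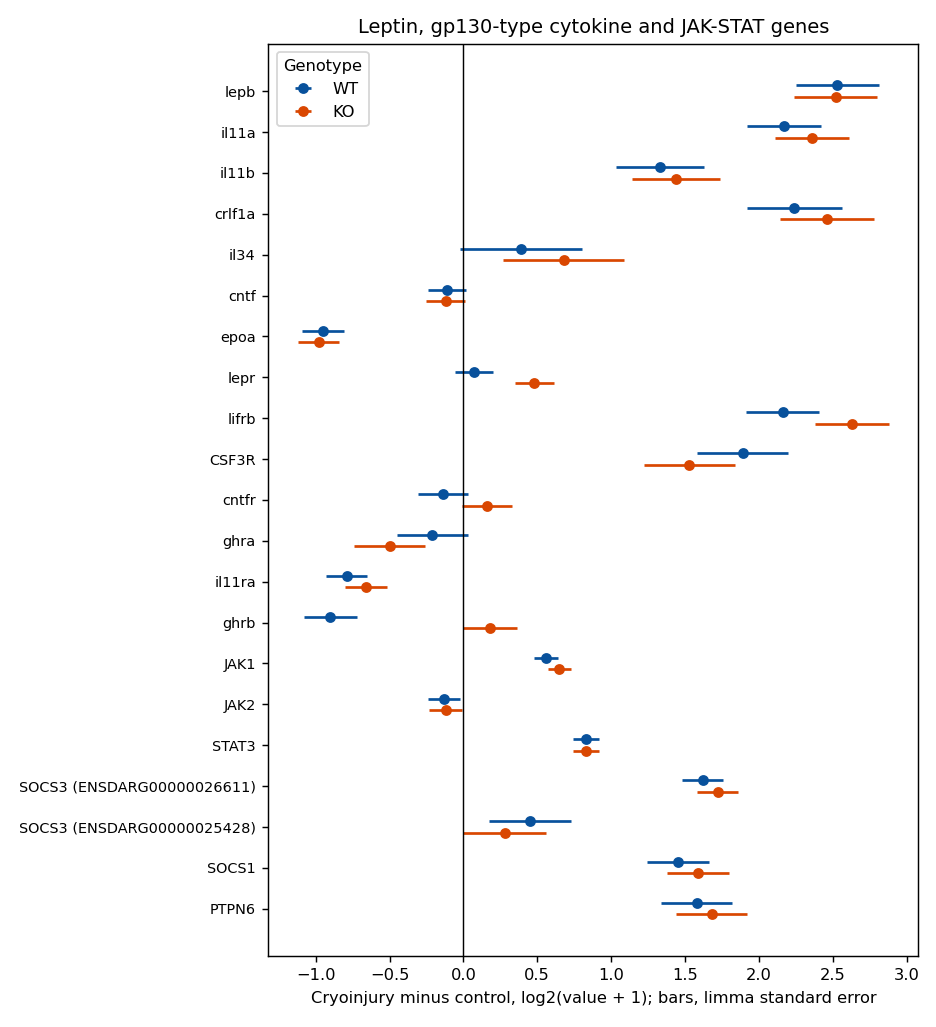
Cryoinjury minus control on the log2(value + 1) scale (horizontal axis) for lepb, lepr and 19 genes of gp130-type cytokines, receptors and JAK-STAT signalling, in WT (blue) and KO (orange) hearts, with bars of 1 limma standard error. Values right of 0 are higher after injury; il11a, crlf1a and lifrb sit near lepb, while lepr and JAK2 sit near 0 in WT hearts.

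Genes known as STAT3 targets or partners in mammals formed a second list with 29 genes, which shares SOCS3 and STAT3 with the list above. Over all genes 24.2% rose and 21.7% fell in WT hearts, and 25.2% rose and 22.4% fell in KO hearts. Of this list 13 rose and 5 fell in WT hearts, and 15 rose and 4 fell in KO hearts, with a median of 0.37 in each. With library totals the counts were 17 and 4 in WT and 19 and 2 in KO hearts. BIRC5, the cell division gene survivin, was at 0.556 ± 0.483 and 7.68 ± 0.712 units in WT control and injured hearts. Both BIRC5 and bcl3 were also listed through injured libraries, which favours a rise, and the counts of genes that rose include them. FOSL1, an AP-1 subunit, rose by 2.1 in WT and 2.67 in KO hearts (limma adjusted p = 3.7e-06 and 2.93e-07). Not all targets rose: the angiogenic factor VEGFA fell from 252 ± 15.4 to 101 ± 10.4 units in WT hearts, a log2 change of -1.32 (adjusted p = 2.96e-08 in limma), and hif1aa, a hypoxia factor, changed by -1.2 (2.21e-06). HIF1A, a separate identifier, did not pass, with -0.01 in WT hearts (limma adjusted p = 0.968).

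The genotype in control hearts passed the threshold for 2 of 49 genes in the leptin list and 2 of 30 in the STAT3 list, all lower in KO, against 1.08% of all genes. In the first list these were ghrb (-0.99, limma adjusted p = 0.00939) and the insulin receptor substrate IRS2 with identifier ENSDARG00000075282 (-1.72, 0.00349). The other IRS2 identifier, ENSDARG00000037099, did not pass (-0.5, limma adjusted p = 0.129). In the second list the genes that passed were FOSL1 (-1.29, limma adjusted p = 0.0185) and ATF3, a stress transcription factor (-1.07, 0.0293). Without WT control library 1, KO control library 1 or KO control library 2, FOSL1 and ATF3 missed the threshold, and so did ATF3 without WT control library 4, with adjusted p-values of 0.0646 to 0.106. In injured hearts ptpn11b passed (-0.4, limma adjusted p = 0.042), and leaving out any of 11 libraries ended that call.

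For the glucagon system, the receptor genes gcgra, gcgrb and gipr had no row, and the GLP-1 receptors were not found by symbol in the name table and were not analysed here. The related peptide VIP was at 1.16 ± 0.591 and 2.99 ± 2.73 units in WT control and injured hearts (limma adjusted p = 0.326), and 1 KO cryoinjury pool, library 1, held 21.7 units against 1.45 to 1.84 in the other 3. Its receptor VIPR2 and the receptor partner ramp2 also did not pass. With the enzymes and targets of cyclic AMP the list held 35 genes besides gcga. Over all genes 24.2% rose and 21.7% fell in WT hearts, and 25.2% rose and 22.4% fell in KO hearts. Of this list 4 rose and 11 fell in WT hearts, and 3 rose and 6 fell in KO hearts, with medians of -0.13 and -0.1. This direction depended on the scaling: with library totals 11 rose and 4 fell in WT and 6 rose and 5 fell in KO hearts. Leaving out WT control library 1 or 3, or any WT cryoinjury library, left 2 of the 4 genes that rose in WT hearts.

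The adenylyl cyclase ADCY6 (ENSDARG00000027797), which makes cyclic AMP, fell from 58.9 ± 7.38 to 26.4 ± 5.22 units in WT hearts, a log2 change of -1.14 (limma adjusted p = 2.86e-06), and by 0.79 in KO hearts (0.000136). The other ADCY6 identifier, ENSDARG00000061445, did not pass, with -0.13 in WT and -0.27 in KO hearts (limma adjusted p = 0.441 and 0.0931). PDE3B, which breaks cyclic AMP down, changed by -0.67 and -0.46 (limma adjusted p = 9.44e-06 and 0.000454). The catalytic subunit of protein kinase A prkacab rose by 0.84 and 0.62 (limma adjusted p = 6.47e-05 and 0.0011). Of genes that glucagon turns on in mammalian liver, PPARGC1A, a coactivator of mitochondrial genes, fell from 44.3 ± 3.13 to 16.9 ± 5.12 units in WT hearts, a log2 change of -1.38 (adjusted p = 4.12e-05 in limma), and by 0.94 in KO hearts (0.00144). The carnitine palmitoyltransferase cpt1ab changed by -1.18 and -0.72 (limma adjusted p = 4.49e-07 and 9.36e-05). CPT1A, a separate identifier, did not pass, with 0.11 in WT and 0.17 in KO hearts (limma adjusted p = 0.537 and 0.299). Also looked at, though not as a gene that glucagon turns on, the mitochondrial enzyme pck2 rose by 0.79 and 1.08 (limma adjusted p = 0.00134 and 8.32e-05). Its cytosolic partner in glucose production, pck1, had no row. GNAS, the Gs subunit itself, changed by -0.25 in WT hearts (limma adjusted p = 0.0242), which turned to 0.09 with library totals and missed the threshold without WT control library 2 or WT cryoinjury library 2 (adjusted p = 0.0676 to 0.0699). The cAMP-responsive factor crema was lower in KO than in WT control hearts (-0.97, limma adjusted p = 0.0136), and without WT control library 1 or KO control library 2 the adjusted p was 0.0523 to 0.0548.

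**Figure D4:**
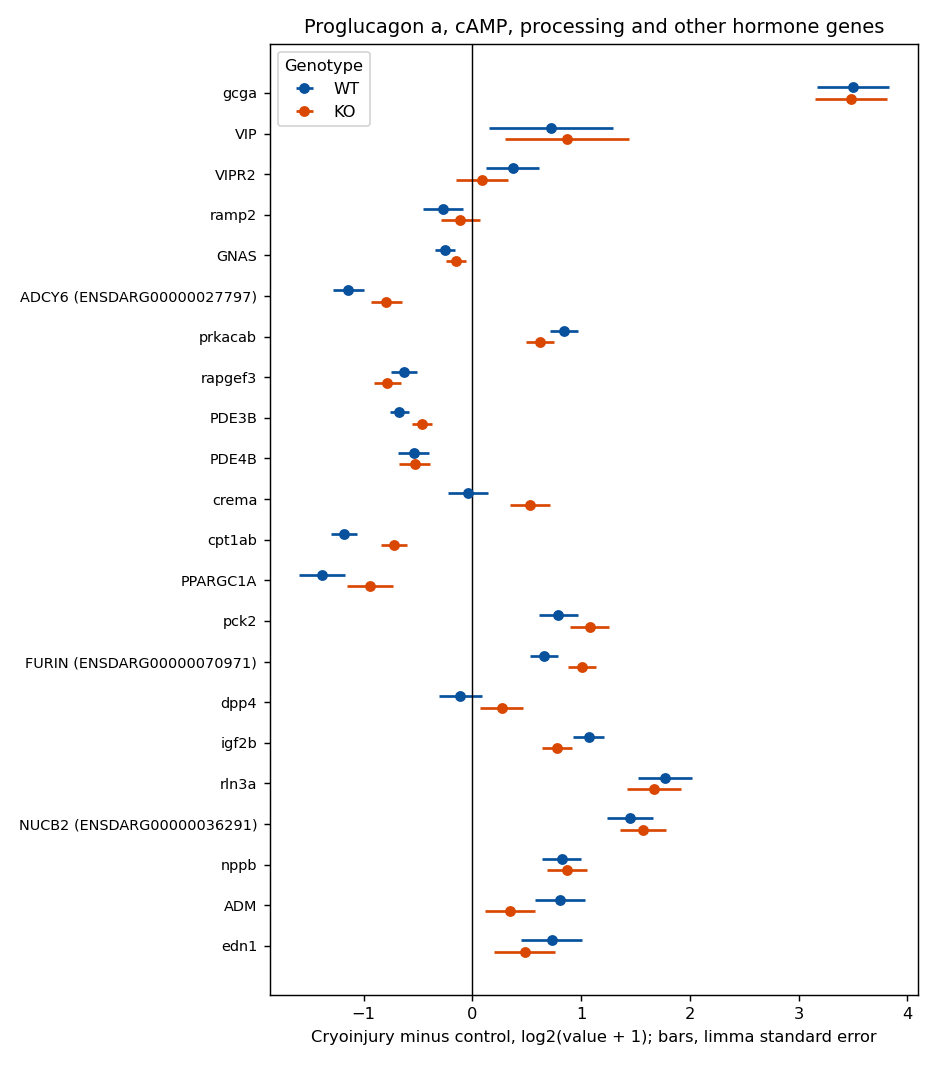
Cryoinjury minus control on the log2(value + 1) scale (horizontal axis) for gcga and 21 genes of cyclic AMP signalling, hormone processing and other peptide hormones, in WT (blue) and KO (orange) hearts, with bars of 1 limma standard error. The gcga difference of 3.5 and 3.48 lies right of every other gene shown, and ADCY6 (ENSDARG00000027797), cpt1ab and PPARGC1A lie left of 0.

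The convertases that cut proglucagon, pcsk1 and pcsk2, had no row, nor did the granule proteins chga, chgb and scg3. Against 24.2% of all genes that rose and 21.7% that fell in WT hearts, and 25.2% and 22.4% in KO hearts, the processing list was small. Of 12 processing genes that were listed, 1 rose and 2 fell in WT hearts and 3 rose and 0 fell in KO hearts. With library totals 5 rose and 0 fell in WT, and 7 rose and 0 fell in KO hearts. FURIN (ENSDARG00000070971), a convertase of most cell types, rose from 8.93 ± 1.69 to 14.6 ± 1.48 units in WT hearts, a log2 change of 0.66 (limma adjusted p = 0.000366), and by 1.01 in KO hearts (5.16e-06). The other FURIN identifier, ENSDARG00000062909, did not pass, with 0.17 in WT and 0.25 in KO hearts (limma adjusted p = 0.372 and 0.181). Those that fell in WT hearts, IDE (-0.21, limma adjusted p = 0.0379) and PCSK5 (-0.3, 0.0469), turned to 0.14 and 0.03 with library totals, and leaving out any of 5 or 12 libraries ended the call. The granule chaperone SCG5 was at 6.09 ± 0.715 units in WT control and 2.46 ± 1.96 in injured WT hearts (limma adjusted p = 0.12). The peptidase dpp4, which inactivates GLP-1, was at 5.73 ± 2.02 and 5.09 ± 0.872 units in WT control and injured hearts (limma adjusted p = 0.672), and at 4.01 ± 0.881 and 5.06 ± 1.22 units in KO hearts (0.281). ECE1, an endothelin convertase, was lower in KO than WT control hearts (-0.56, adjusted p = 0.0121 in limma), and missed the threshold when the 8 control libraries were fitted alone (0.0688).

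Other peptide hormones with a row numbered 17, of which 6 rose and 2 fell in WT hearts and 5 rose and 3 fell in KO hearts. Over all genes 24.2% rose and 21.7% fell in WT hearts, and 25.2% rose and 22.4% fell in KO hearts. The relaxin family gene rln3a was near 0 in control hearts, as lepb was, with 0.0793 ± 0.0928 units in WT control and 2.73 ± 0.731 in injured WT hearts, from 2 and 121 reads. In KO hearts it had 1 read in control and 70 in injured pools. It too was listed through its injured libraries, as were nppc and VIP, so it is described with no p. The counts of hormones that rose include rln3a in both genotypes and nppc in KO hearts. The growth factor igf2b rose by 1.07 and 0.78 (limma adjusted p = 7.84e-06 and 0.000199), and the natriuretic peptide nppb rose by 0.82 and 0.87 (0.00137 and 0.000855). NUCB2 (ENSDARG00000036291), the precursor of nesfatin, rose by 1.45 and 1.57 (limma adjusted p = 2.7e-05 and 1.3e-05). The other NUCB2 identifier, ENSDARG00000036299, changed by -0.21 in WT hearts (limma adjusted p = 0.038), which turned to 0.14 with library totals. Its KO change was -0.06 (limma adjusted p = 0.533). The count that fell rested on single pools, since 1 gene fell in WT hearts without WT cryoinjury library 2 and 1 in KO hearts without KO control library 1.

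Hormone genes are usually read as marks of their gland, so the lists of marker genes were set beside gcga and lepb. None of the 13 islet genes in the name table had a row, among them ins, insb, sst2, pdx1, arxa and pcsk2. The summed level of the 4 exocrine pancreas genes was 45.6 to 184 units in WT control, 18.8 to 29.9 in WT cryoinjury, 65.4 to 102 in KO control and 31.1 to 40.9 in KO cryoinjury hearts. Of these 4, ctrb.1 fell in both genotypes (-2.78 and -1.57, limma adjusted p = 2.51e-05 and 0.00438), and CPA1, CPB1 and ela2l did not pass, with changes of -0.55 to -0.07 in WT and 0.09 to 0.26 in KO hearts. Of 11 intestinal genes mlnl alone had a row, at 0.196 to 3.65 units over all libraries. For lepb, the 3 adipocyte genes summed to 160 to 235 units in WT control and 128 to 159 in WT cryoinjury hearts, and to 175 to 213 and 130 to 152 in KO hearts. The sum hides members that differed: cfd fell by 0.57 and 0.5 (limma adjusted p = 0.000921 and 0.00274), ADIPOQ did not pass, and pparg was higher after injury by 1.16 and 1.08 but was itself listed through injured libraries. The summed level of the 2 liver genes that were listed, of 10, was higher after injury, as lepb was. The sum went from 17.2 to 49.8 units to 65.1 to 207 in WT and from 21.2 to 37.2 to 71.5 to 139 in KO hearts. Of the 2 genes, tfa rose in both genotypes, while hp did not pass, with 0.17 in WT and -0.35 in KO hearts. The gene hp was also listed through injured libraries, and fabp10a, a defining liver gene, had no row.

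Markers of several cell types of the wound were higher in the same hearts as both hormones. Of all genes, 24.2% rose and 21.7% fell in WT hearts, and 25.2% rose and 22.4% fell in KO hearts. All 8 macrophage genes rose in both genotypes, from a sum of 105 to 139 units to 470 to 661 in WT and from 79.1 to 139 to 416 to 596 in KO hearts. These were marco, the complement genes c1qa, c1qb and c1qc, and identifiers that share the symbol MFAP4, so they are not 8 separate markers. Of 7 names in the macrophage list, 6 were in the name table and 5 had a row, which left out mpeg1.1 and csf1ra. All 5 epicardial genes rose, with sums of 184 to 258 and 577 to 702 units in WT and 195 to 240 and 561 to 664 in KO hearts. Of 5 fibroblast genes 4 rose, with sums of 441 to 953 and 3420 to 3570 units in WT and 510 to 649 and 2740 to 4050 in KO hearts. Those that rose were collagens and POSTN, while PDGFRA did not pass, with 0.36 in WT and -0.15 in KO hearts (limma adjusted p = 0.152 and 0.557). All 3 cardiomyocyte genes fell, from 27500 to 31000 units to 14600 to 16300 in WT hearts. Of 4 endothelial genes 0 rose and 1 fell in WT hearts. The neutrophil sum was 4.07 to 71.8 and 21.5 to 48.8 units in WT and 3.66 to 7.25 and 49.1 to 666 in KO hearts. Its highest values came from KO cryoinjury libraries 2 (666) and 1 (131), which stood apart by krt5, followed by WT control library 4 (71.8). Of the 4 neutrophil genes, lyz, MMP9 and mmp13a were listed through injured libraries. The skin and gill sum was 196 to 291 and 537 to 775 units in WT and 183 to 321 and 650 to 1720 in KO hearts. Of its 3 genes krt4 rose (1.45 and 1.78, limma adjusted p = 1.48e-06 and 1.71e-07), while krt5 (-0.78 and 1.91) and epcam (-0.1 and 1.63) did not pass, and neither red blood cell gene passed in either genotype. The part of any of these cells in the lepb and gcga levels was not tested.

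Genes whose course over the 16 libraries was most like that of lepb, by Pearson's r of log2(value + 1), were ANXA2 (r = 0.974), krt8 (0.973), E2F8 (0.971), ska3 (0.971), glud1a (0.971) and MAD2L1 (0.969). ANXA2 and krt8 are an annexin and a simple epithelial keratin, and E2F8, ska3 and MAD2L1 are genes of the cell cycle. E2F8, ska3 and MAD2L1 had control means of 0.101 to 0.872 units, below the 1.76 units every listed gene reached. They too were listed through injured libraries, which favours a course like that of lepb. Genes most like gcga included ywhaqa (0.981), TRAM1 (0.976), EPN2 (0.976), FKBP7 (0.971) and mycla (0.97). For lepr they were YDJC (0.868), VBP1 (0.862), DAPK3 (0.862), PEAK1 (0.85), ywhabl (0.845) and PFKFB4 (0.844). For lepb and gcga the libraries fall into control and injured clusters, so these values mostly restate that contrast. By the deviations from the group means, the highest were armc5 (0.831) for lepb, s100v2 (0.865) for gcga and TTC27 (0.836) for lepr. With Spearman's rho in place of r, 0 of the 6 genes for lepb, 2 of 6 for gcga and 2 of 6 for lepr were the same.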

How the data were processed

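The members and gene lists were chosen with earlier results of these data known. Per the labels, RNA came from zebrafish hearts, each library from 3 pooled hearts, and the labels call the 4 libraries of a group biological replicates. Software is given in the submitters' processing notes as RSEM 1.2.3, cutadapt and CASAVA 1.8.2, and the build as Zv9, with no roles. The deposited table holds a normalized signal made by the authors, by a scaling not given in the sources used here. Each library's values stepped by a fixed amount, the worth of a read, and dividing by it gave whole reads for 100% of values, within 0.01 read. Since the values are normalized, the design's limma branch applied and not edgeR on raw counts. In R 4.3.3, limma 3.58.1 with an intensity trend was fitted to log2(value + 1) with 4 group means over 16 libraries (12 residual degrees of freedom and 5.12 from the prior). P-values were adjusted over 14500 genes. The threshold was an adjusted p under 0.05. A DESeq2 1.42.0 Wald test and an edgeR 4.0.16 quasi-likelihood test on recovered reads were alternatives, the latter calling 6741 and 6763 genes after injury in WT and KO and 176 and 84 between genotypes in control and injured hearts. Others were size factors, library totals, pseudocounts of 0.5 and 10, a filter at a mean of 5 units, fits of 8 libraries, a replicate block, a threshold of 0.01, and leaving out libraries. The match to exact zebrafish symbols, the read ratios and the correlations that omit the pair of libraries standing apart were added after seeing the data.

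Symbols came from a name table that matched 11702 of 14500 identifiers, and 1219 shared a symbol. Of 450 list names 193 had a row, by the exact symbol or the symbol without a final a or b. Capitals mark symbols given in the human style. From each list up to 8 genes with the smallest p for injury in WT were eligible to be named, up to 4 past the threshold in each other contrast, and receptors or ligands at a low level. The 6 genes most alike to each hormone gene were also taken, and 1 of them is not reported here. The kit does not mark strand, and counting may have divided reads among near-identical gene copies. In RefSeq (assembly GRCz12tu) 0 coding genes overlap lepb, lepr or gcga. Counting intervals are exact at 95%, except that 0 reads were given up to 3 reads. P-values from limma set a difference against the spread between pools, an estimate that borrows in part from other genes. The fit was also run on simulated data in which few genes changed, and in WT cryoinjury libraries alone. After injury 45.9% of genes passed in WT and 47.6% in KO hearts, so that run does not check these contrasts. No sequence was used.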

Additional observations from a re-analysis of the deposited data

Results flagged for a closer look

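In 66 genes and 4 groups each, 264 groups of 4 libraries were checked for a library far from the other 3, and 23 were flagged. Chance flags about 1 in 20 groups. Among the hormone genes these were lepb in WT cryoinjury library 3, at 3.14 units against 5.63 to 5.82 in the others, and the single lepb reads in WT control library 2 (0.132 units) and KO control library 3 (0.152 units), where the others were at 0.

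Single reads also set il11b apart in WT control library 4 (0.14 units) and KO control library 3 (0.152 units) and rln3a in KO control library 4 (0.196 units). In the leptin pathway, il11a was 9.83 units in KO cryoinjury library 2, CSF3R was 17.4 units in WT cryoinjury library 1 and 12.9 in KO cryoinjury library 3, and SOCS3 (ENSDARG00000025428) was 654 units in KO cryoinjury library 4. The low values there were il34 in WT control library 1 (1.77 units), ghra in WT cryoinjury library 4 (1.68) and KO control library 3 (3.2), cntfr in WT control library 1 (4.95) and SOCS1 in KO control library 1 (1.5). VEGFA was high in WT cryoinjury library 2 (116 units).

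In the glucagon system, VIP stood at 21.7 units in KO cryoinjury library 1 against 1.45 to 1.84 in the others. GNAS was high in WT control library 2 (37.8 units), where ADCY6 (ENSDARG00000027797) was low (47.8 units). KO control library 1 was high in rapgef3 (31.4 units) and PDE4B (144 units), FURIN (ENSDARG00000070971) was high in WT control library 3 (11.5 units), and AK4, a neighbour of lepr, was high in WT control library 2 (35.3 units).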

How the results depend on the processing

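The direction of lepb and gcga after injury was the same under every alternative that gave a value, and their size followed the scale. For lepb the log2 difference in WT and KO hearts was 6.64 and 6.67 with edgeR, 6.87 and 6.86 with DESeq2, 3.36 and 3.33 with a pseudocount of 0.5, and 0.58 and 0.61 with 10. For gcga it was 1.8 and 1.74 with a pseudocount of 10, and in KO hearts 4.09 with edgeR and 4.08 with DESeq2. With library totals lepr was 0.42 and 0.72, GNAS turned to 0.09, IDE to 0.14, PCSK5 to 0.03 and NUCB2 (ENSDARG00000036299) to 0.14 in WT hearts. The share of lower calls went from 47.3 to 15.8% in WT and from 47.1 to 22.4% in KO hearts. Under a filter at a mean of 5 units lepb had no value. The lower lepr in KO control hearts passed with DESeq2 (-0.49, adjusted p = 0.0317) and in no other fit. Genes past the threshold for genotype in control hearts numbered 215, and 406 with DESeq2, 73 with the 8 libraries compared and 46 at a threshold of 0.01. In injured hearts they numbered 64, and 100 with library totals, 215 with DESeq2, 25 with 8 libraries, 5 without KO cryoinjury libraries 1 and 2, and 13 at 0.01. The interaction had 0 in limma and 20 with DESeq2. Why these counts moved was not tested. With the replicate number as a block they were 97 in injured hearts and 1 for the interaction, and lepr in control hearts kept -0.48 (adjusted p = 0.0881). Same-numbered libraries had correlated deviations of -0.054 to 0.189, so the numbers were not taken as pairs. Leaving out each library gave 76 to 361 and 19 to 84 genes for genotype in control and injured hearts and 0 to 3 for the interaction. After injury it gave 2.46 to 2.7 and 2.3 to 2.88 for lepb, 3.25 to 3.66 and 3.23 to 3.68 for gcga, and 0 to 0.18 and 0.38 to 0.56 for lepr in WT and KO hearts. For other named genes, 73 of 92 calls held in up to 27 alternatives. Many of these genes were named for a small p in the same fit, which favours calls that hold. The share over all called genes was not counted. The 92 calls include il11a, il11b, crlf1a, BIRC5 and rln3a, which were listed through injured libraries, so their rise was favoured in advance. With list names matched to exact zebrafish symbols fewer genes were tested, and 12 of 33 leptin genes rose and 7 fell in WT hearts, and 4 and 7 of 24 glucagon genes. Without KO cryoinjury libraries 1 and 2 they were 15 and 5 in KO hearts for leptin and 2 and 6 for glucagon. Depth limits lepb, which held 1 read per control group.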

Other observations

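Genes beside each hormone gene on its chromosome, by the order of RefSeq genes in assembly GRCz12tu, were looked up after the values of the hormone genes were known. The neighbours of gcga are PCYT2 and dpp4. PCYT2, an enzyme of phospholipid synthesis, fell from 266 ± 40.9 to 186 ± 18.9 units in WT hearts (log2 change -0.5, limma adjusted p = 0.00235, but 0.258 with library totals), and was at 220 ± 31.2 and 188 ± 19.7 units in KO hearts (0.146). With dpp4 not past the threshold, neither neighbour rose with gcga. Near lepb, SND1 rose by 0.54 and 0.61 (limma adjusted p = 1.4e-05 and 3.76e-06) and rap1b by 0.38 and 0.46 (0.000553 and 9.44e-05), and MCAT changed by -0.26 in WT hearts (0.207) and by -0.52 in KO hearts (0.0149, and 0.0551 without KO control library 4 or KO cryoinjury library 2). Near lepr lie AK4, JAK1 and RAVER2, and RAVER2 rose by 1.38 and 0.78 (limma adjusted p = 7.93e-05 and 0.00862).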
